A study of Homo sapiens with 16 samples.

Results

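Hep3B is a human hepatocellular carcinoma (HCC) cell line, and Hep3B-CR cells are Hep3B cells that were made resistant to Sorafenib by keeping them in a constantly high concentration of the drug. The comparison of Hep3B-CR with parental Hep3B cells rests on 4 of the 16 RNA libraries of the study, 2 of Hep3B-CR and 2 of parental cells, chosen by their titles. CR libraries are labelled with 7 μM Sorafenib and parental ones as untreated, and both groups carry the background of the same line, so the difference holds exposure to the drug and acquired resistance together. The other Hep3B libraries, used here as a reference, are 2 of Hep3B-IR cells, raised in stepwise increasing Sorafenib and labelled with 7 μM, and 2 of untreated cells labelled DMSO, whose culture is not described in the sources used here. A further 4 libraries of the HCC line Huh7, parental and CR, serve for 1 comparison between lines. Neither the labels nor the methods say whether Hep3B-CR is a clone or a pool of cells, and the growth protocol is written out for Huh7 cells only.

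Sorafenib is an oral inhibitor of RAF kinases and of receptor tyrosine kinases such as the receptors for VEGF and PDGF, and it is used against advanced HCC. Tumor cells that survive long exposure commonly differ from their parents in growth signaling, metabolism, stress responses and differentiation. Hepatocytes are known for secreting most plasma proteins and lipoproteins, a program driven by factors such as HNF4A and lost to varying degrees in HCC cells.

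Expression is given in CPM, read counts scaled to a common library total, the unit of the deposited table, always for replicates 1 and 2 in that order. Recovered totals were 74283128 and 71089113 reads in parental and 75527374 and 52520852 reads in CR cells, and the replicates correlated at 0.994 and 0.992 across 15019 genes. Of those genes, which reached at least 1 CPM in at least 2 of the 16 libraries, a gene was called when its Benjamini-Hochberg (BH) adjusted p from limma was under 0.05 and its log2 change on log2(CPM + 1) was at least 0.58 in size. Changes are given as CR minus parental with their standard error (SE), each from 2 against 2 libraries with the spread shared over all 16. The methods state biological triplicates, whereas 2 libraries per group are labelled here and no label says that they came from separate cultures. The p-values thus measure the spread between replicates over all 16 libraries, which may be technical. Across genes, the replicate difference had a standard deviation of 0.29 for Hep3B-CR, 0.26 for Hep3B parental and 0.57 for both Huh7-IR and Huh7-DMSO. An SE can therefore exceed what the 4 compared libraries alone would give. Fitting the Hep3B libraries alone gave 5348 calls and the 4 compared libraries alone 5118, against 4840 in the main fit.

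In Hep3B-CR cells 4840 genes were called, 32.2% of those tested. Of these, 2997 (20.0% of the genes tested) were higher and 1843 (12.3%) lower than in parental cells, and 403 rose and 238 fell by at least 2 on the log2 scale. Counts of called members in the gene lists below are to be read against these shares of all genes, 20.0% higher and 12.3% lower. Both CR libraries lay on one side of both parental libraries for each of the called genes, as they did for 76.6% of all genes tested. The median change of all genes tested was 0.11, and quantile normalization lowered it by 0.11 to -0.0038. The higher genes made up 61.9% of the calls with CPM, 52.6% with TMM factors, 53.8% with edgeR, 52.2% with DESeq2 and 49.2% after quantile normalization, so the excess of higher genes depends on how the libraries are scaled. Without parental replicate 2 the higher genes numbered 1883.

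The gene with the largest rise was ITGA3 (chromosome 17, 48133332 to 48167845 in GRCh37), the alpha-3 subunit of a laminin-binding integrin. It had 1.29 and 0.760 CPM in parental and 486 and 521 CPM in CR cells, a log2 change of 7.97 ± 0.32 (adjusted p = 3.04e-08). Both DMSO libraries were close to the parental ones, at 2.55 and 1.96 CPM, and Hep3B-IR cells stood in between, at 189.9 and 111 CPM. The receptor tyrosine kinase AXL went from 0.821 and 0.760 to 163 and 115 CPM (6.27 ± 0.37), and CDKN1A, which encodes the cell cycle inhibitor p21, from 0.848 and 1.36 to 225 and 138 CPM (6.41 ± 0.68). All 3 genes were below 2 CPM in both parental libraries and above 100 CPM in both CR libraries. The matrix genes COL12A1 (6.42) and COL1A1 (5.69), the cytoskeletal and membrane-associated genes MAP1B (5.93), AHNAK2 (6.01) and ANXA1 (5.24), and the netrin receptor UNC5B (5.83) also belonged to the 15 largest rises. So did the transcription factor ETS1 (5.62), the BMP ligand BMP6 (5.52), the hexokinase HKDC1 (5.46), and NIBAN1 (6.64), LONRF2 (6.06) and LAMP3 (5.90).

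The largest fall was in CHODL (chromosome 21, 19273580 to 19639690), a membrane protein of the C-type lectin family, with 123 and 45.9 CPM in parental and 0.450 and 0.400 CPM in CR cells (-5.74 ± 0.35, adjusted p = 5.63e-07). Its DMSO libraries had 9.38 and 10.2 CPM, so the untreated groups differed here too, while all 4 resistant libraries were under 1 CPM. Several of the others encode secreted liver proteins. AFP, the fetal serum protein used as an HCC marker, went from 268 and 116 to 5.27 and 3.73 CPM (-5.03 ± 0.54), and ALB, the gene for albumin, from 12152 and 13348 to 655 and 753 CPM (-4.18 ± 0.61). APOA1 (-4.58), TF (-4.55) and FGB (-4.45) and the neuropeptide gene NTS (-5.09) were also among the 15 largest falls. The others reported here were LSAMP (-5.55), CDH12 (-4.08) and IGDCC3 (-4.73), which encode cell surface proteins of adhesion families, the calcium pump gene ATP2B2 (-4.09), TM4SF4 (-4.26) and ZPLD1 (-4.26).

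**Figure D1:**
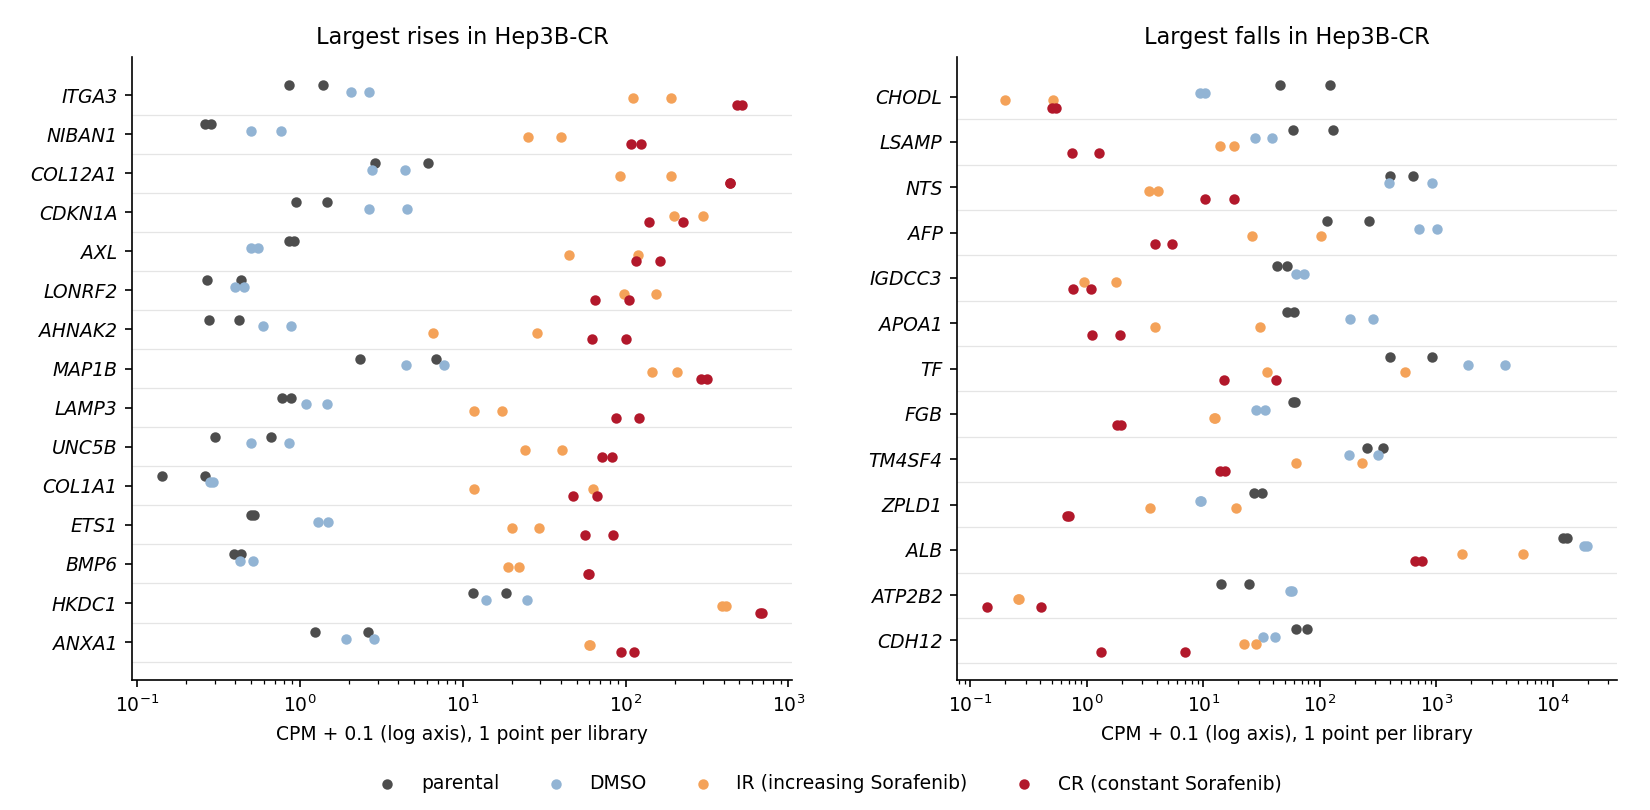
CPM plus 0.1 on a log axis in the 8 Hep3B libraries for the 15 genes with the largest rise (left) and 13 of the 15 with the largest fall (right) in Hep3B-CR against parental cells, 1 point per library. For ITGA3 the CR libraries sit at 486 and 521 CPM against 1.29 and 0.760 CPM in parental cells, and for ALB at 655 and 753 CPM against 12152 and 13348 CPM.

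All 15 of these rises were also called higher in Hep3B-IR against DMSO cells, a comparison that shares no library with CR against parental, and 10 of the 15 falls were called lower there, against 17.3% and 14.8% of all genes. No rise and 2 of the falls were called in DMSO against parental cells, where 160 of all 15019 genes were called higher and 77 lower.

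Genes for plasma proteins secreted by hepatocytes fell as a group. Of 47 members tested, 28 were lower and 1 higher, against 12.3% and 20.0% of all genes, with a median log2 change of -1.63. The summed level of the list was 17443 and 20665 CPM in parental and 1992 and 2587 CPM in CR cells. DMSO libraries held more, 32218 and 38307 CPM, and IR libraries were uneven, at 4208 and 11278 CPM. TF, the iron carrier of plasma, shows how far libraries of a group can differ, with 405 and 927 CPM in parental and 15.1 and 42.00 CPM in CR cells (-4.55 ± 0.99, adjusted p = 0.00354). Not every plasma protein followed. SERPINA1, for alpha-1-antitrypsin, had 392 and 547 CPM in parental and 336 and 430.5 CPM in CR cells (-0.28 ± 0.58, adjusted p = 0.746), and TTR, for transthyretin, had 16.7 and 59.5 CPM in parental and 13.5 and 12.4 CPM in CR cells (-1.23 ± 0.66, adjusted p = 0.161), neither of which passed the test, although TTR did without parental replicate 1.

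Apolipoproteins and the factors that assemble lipoproteins followed the plasma proteins. Of 20 members 14 were lower and 0 higher (median -1.28), against 12.3% and 20.0% of all genes. APOA1, the main protein of high-density lipoprotein, had 52.3 and 60.3 CPM in parental and 1.01 and 1.85 CPM in CR cells. APOC2, the activator of lipoprotein lipase, went from 111 and 122 to 20.2 and 17.9 CPM (-2.56 ± 0.19). MTTP, which loads lipid onto nascent lipoproteins, went from 76.5 and 69.2 to 9.69 and 20.6 CPM (-2.28 ± 0.25). APOB, the scaffold of low-density lipoprotein, had 3597 and 5914 CPM in parental and 163 and 774 CPM in CR cells (-3.69 ± 0.87, adjusted p = 0.00567) and lost its call without CR replicate 1 or parental replicate 2. The count of members called lower was 8 without CR replicate 1 and 6 without parental replicate 2.

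The transcription factors behind that program moved less. Of 24 hepatocyte transcription factors 8 were lower and 3 higher (median -0.54), against 12.3% and 20.0% of all genes. The counts were 5 and 1 without parental replicate 2, 9 and 1 without CR replicate 2, and 13 and 3 with DESeq2. HNF4A had 191 and 198 CPM in parental and 119 and 115 CPM in CR cells (-0.73 ± 0.34, adjusted p = 0.109), which did not pass the test. ONECUT1, also known as HNF6, went from 21.9 and 19.5 to 3.15 and 5.22 CPM (-2.09 ± 0.23), while Hep3B-IR cells stayed at 18.1 and 21.4 CPM. CEBPB, a factor induced by inflammatory and stress signals, rose from 5.28 and 6.16 to 36.5 and 36.00 CPM (2.47 ± 0.25). Hepatocyte metabolic enzymes were split, with 9 of 29 higher and 7 lower, against 20.0% and 12.3% of all genes. The split was 4 and 13 with DMSO cells as the reference, 5 and 5 without CR replicate 2, and 5 and 4 without CR replicate 1 or parental replicate 2. Among them HPD, of tyrosine breakdown, changed by -2.13 on the log2 scale, and the mitochondrial gluconeogenic enzyme gene PCK2 rose by 2.36.

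Cholesterol synthesis genes were lower where they moved at all. Of 23 members 7 were lower and 0 higher (median -0.74), against 12.3% and 20.0% of all genes. The replicates of the parental group lay apart for this list, with medians of -0.29 and 0.29 relative to their mean, and the DMSO libraries at 1.10 and 1.25 were above both. The count of members called lower was 4 without CR replicate 1, 3 without CR replicate 2 and 1 without parental replicate 2, and 22 with DMSO cells as the reference. Fatty acid synthesis genes had 3 of 17 higher and 1 lower, which became 2 and 9 with DMSO cells as the reference, 3 and 5 with DESeq2, 3 and 4 after quantile normalization, 3 and 3 with edgeR or without parental replicate 1, and 3 and 0 without CR replicate 1 or parental replicate 2. SCD5, a desaturase, rose from 0.121 and 0.0281 to 5.89 and 10.9 CPM (3.07 ± 0.30).

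**Figure D2:**
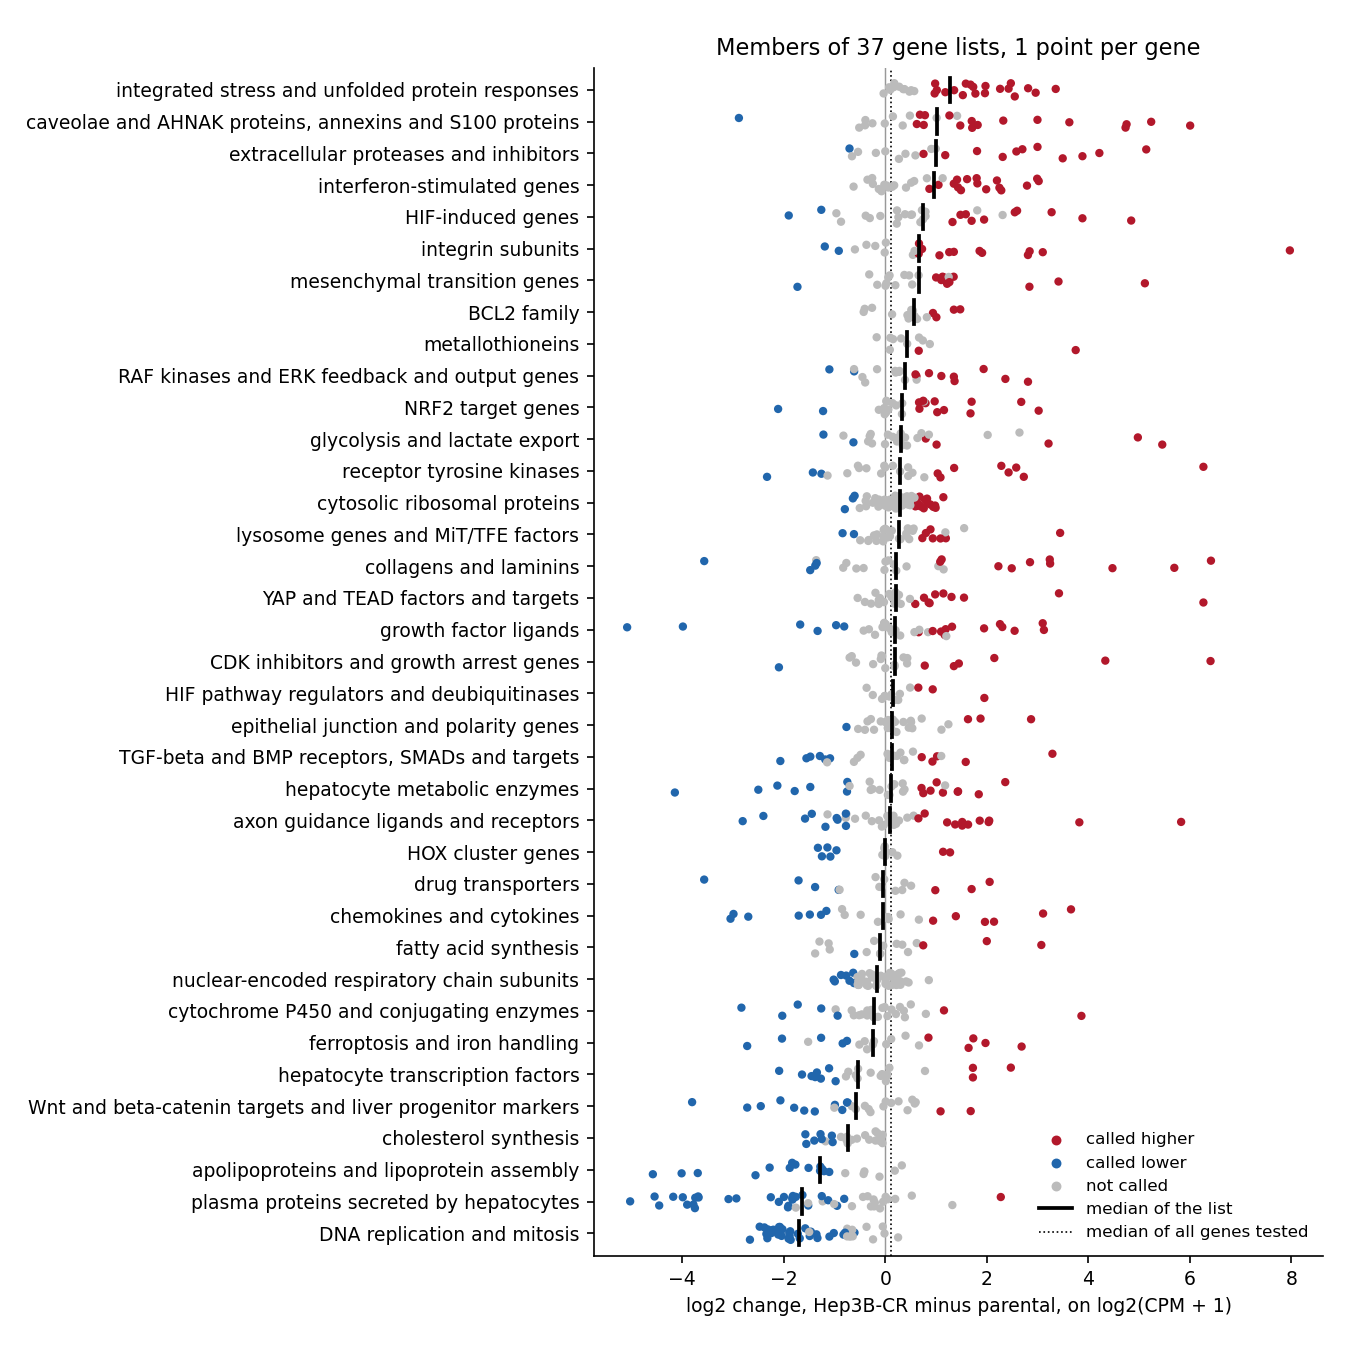
Log2 change of Hep3B-CR against parental cells on log2(CPM + 1) for the tested members of 37 gene lists, 1 point per gene, colored by call, with each list's median as a bar and the median of all genes tested, 0.11, as a dotted line. The lowest medians are those of DNA replication and mitosis (-1.70) and plasma proteins (-1.63) and the highest is that of the integrated stress and unfolded protein responses (1.27).

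Genes of DNA replication and mitosis had the largest share of lower members among the lists. Of 44 members tested, 33 were lower and 0 higher (median -1.70), against 12.3% and 20.0% of all genes. Their summed level was 9654 and 10024 CPM in parental against 3395 and 3345 CPM in CR cells. CENPF, a kinetochore protein, had 1269.9 and 1136 CPM in parental and 217 and 163 CPM in CR cells (-2.67 ± 0.35, adjusted p = 0.000118). RRM2, the regulated subunit of ribonucleotide reductase, went from 192 and 236 to 38.95 and 36.1 CPM (-2.48 ± 0.64), a call lost without CR replicate 2 or parental replicate 2. CDC25A, a phosphatase that activates cyclin-dependent kinases, went from 59.1 and 62.7 to 11.5 and 10.9 CPM (-2.34 ± 0.30). Hep3B-IR cells had also moved, with library medians of -0.78 and -1.24 relative to parental cells, and the CR libraries lay beyond them at -1.58 and -1.75. Directly compared, 8 of the 44 genes were lower in CR than in IR cells and 0 higher, against 5.33% and 6.41% of all genes. In bulk RNA, fewer dividing cells and less of these transcripts per dividing cell cannot be told apart.

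Promoters of many mitotic genes carry a cell cycle homology region (CHR), a short element known to bind repressor complexes in resting cells. The motif TTTGAA, searched on both strands in the 250 bases before the start of each gene in RefSeq's GRCh38.p14 promoters, was found in 10 of 35 list members with a promoter (28.6%) and in 9.0% of 11742 promoters of tested genes. All 10 were among the 27 called lower with a promoter, and 0 of the 8 not called held it. The following stretches are shown because their genes fell together and hold the motif, in capitals, shortly before the start.
MKI67, chr10:128126430-128126505, minus strand: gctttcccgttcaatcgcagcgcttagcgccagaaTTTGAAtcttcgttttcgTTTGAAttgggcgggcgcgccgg
PLK1, chr16:23678825-23678888, plus strand: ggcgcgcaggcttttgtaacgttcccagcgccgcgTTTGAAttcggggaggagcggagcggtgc
CCNB2, chr15:59105082-59105145, plus strand: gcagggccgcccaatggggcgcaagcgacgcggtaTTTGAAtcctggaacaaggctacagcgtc
BUB1B, chr15:40161011-40161068, plus strand: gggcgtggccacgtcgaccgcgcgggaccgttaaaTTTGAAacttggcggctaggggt
These genes, chosen for the match, encode the proliferation antigen Ki-67, the mitotic kinase PLK1, cyclin B2 and the checkpoint kinase BUBR1, and their log2 changes were -2.25, -1.89, -2.04 and -2.03. A match is a description of the letters and no measure of binding.

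Some genes for inhibitors of cyclin-dependent kinases (CDK) rose in the same cells. Beside CDKN1A, CDKN2B, which encodes p15, went from 9.48 and 15.1 to 279 and 245 CPM (4.34 ± 0.27). Reads of CDKN2B can overlap those of its antisense neighbor, and use of strand in counting is not given in the sources used here. Of 20 CDK inhibitors and genes of growth arrest and apoptosis 6 were higher and 1 lower (median 0.18), against 20.0% and 12.3% of all genes, and 3 were higher without CR replicate 1. The split was 4 and 3 with DMSO cells as the reference and 6 and 3 with DESeq2. The death receptor TNFRSF10B rose by 2.15, and the antiproliferative gene BTG2 fell, from 17.8 and 17.2 to 2.85 and 3.87 CPM (-2.10 ± 0.30).

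The integrated stress and unfolded protein responses were the lists with the highest median. Cells that lack amino acids or hold unfolded proteins in the endoplasmic reticulum are known to induce such genes through ATF4 and related factors. Of 30 members 19 were higher and 0 lower (median 1.27), against 20.0% and 12.3% of all genes. The median lay between 1.10 and 1.44 without any 1 of the 4 libraries. TRIB3, a pseudokinase, had 51.4 and 78.2 CPM in parental and 670.5 and 649 CPM in CR cells (3.36 ± 0.44, adjusted p = 0.000128). The transcription factors ATF3, with 13.3 and 14.4 CPM in parental and 145.8 and 89.8 CPM in CR cells (2.96 ± 0.54), and DDIT3, also called CHOP, with 18.3 and 15.2 CPM in parental and 129 and 118 CPM in CR cells (2.81 ± 0.40), rose as well. CHAC1, which degrades glutathione, rose from 14.4 and 14.9 to 60.6 and 60.3 CPM (1.97 ± 0.36). IR cells had library medians of 1.06 and 1.02 for this list and CR cells 1.37 and 1.18, and 4 of the 30 members were higher in CR than in IR cells, against 6.41% of all genes.

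Several of these promoters carry the letters of a C/EBP-ATF response element (CARE), to which ATF4 dimers are known to bind. The motif TGATGNAA, on either strand, was found in 4 of 27 members with a promoter (14.8%) and in 1.6% of 11742 promoters. The 4 were among the 17 called higher, and 0 of the 10 not called held it. They are shown with the match in capitals, as the reverse complement for CHAC1 and HERPUD1, where it lies on the opposite strand.
ASNS, chr7:97872434-97872511, minus strand: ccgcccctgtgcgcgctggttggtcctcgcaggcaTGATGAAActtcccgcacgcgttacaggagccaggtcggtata
CHAC1, chr15:40953227-40953304, plus strand: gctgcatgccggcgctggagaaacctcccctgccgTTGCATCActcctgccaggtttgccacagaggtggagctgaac
ATF3, chr1:212565181-212565258, plus strand: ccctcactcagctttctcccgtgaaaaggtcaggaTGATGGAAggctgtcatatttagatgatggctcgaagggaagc
HERPUD1, chr16:56931931-56932008, plus strand: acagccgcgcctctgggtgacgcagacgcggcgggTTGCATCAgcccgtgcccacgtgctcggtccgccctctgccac
ASNS, for asparagine synthetase, and HERPUD1, of protein degradation at the endoplasmic reticulum, were named for this match, and their log2 changes were 1.96 and 1.36.

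Interferon-stimulated genes act in antiviral defense and antigen presentation. Of 32 members 16 were higher and 0 lower (median 0.96), against 20.0% and 12.3% of all genes. The antiviral gene IFIT2 went from 0.700 and 0.591 to 12.9 and 11.8 CPM (3.02 ± 0.34, adjusted p = 4.30e-05), and DDX60, a helicase of RNA sensing, from 2.28 and 1.27 to 22.96 and 13.9 CPM (2.79 ± 0.31). TAP1, the peptide transporter of antigen presentation, had 2.81 and 1.86 CPM in parental and 32.7 and 19.5 CPM in CR cells (2.99 ± 0.64). The list's summed level differed less, at 1162 and 1115 CPM in parental and 1248 and 1184 CPM in CR cells. Compared with Hep3B-IR, 7 of the 32 members were higher in CR cells and 0 lower, against 6.41% and 5.33% of all genes. Without parental replicate 2 the count of members called higher was 10. The interferon-stimulated response element (ISRE), searched as GAAA, any 2 bases and GAAA on either strand, was found in 15 of 24 promoters of the list (62.5%) and in 2.3% of 11742 promoters, in 7 of the 13 called higher and in 8 of the 11 not called. Repeated matches stood in genes of either kind. They were found in IFIT1 and IFIH1, called higher, and in IFI6, IFI44L, IFITM3 and OAS3, not called. The promoters of IFIT3 (log2 change 2.29) and DDX60, both called higher, are shown as examples. Each holds these letters, in capitals, more than once, for IFIT3 as the reverse complement.
IFIT3, chr10:89327840-89327919, plus strand: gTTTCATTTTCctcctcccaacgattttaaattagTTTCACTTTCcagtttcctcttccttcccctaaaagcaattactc
DDX60, chr4:168318796-168318875, minus strand: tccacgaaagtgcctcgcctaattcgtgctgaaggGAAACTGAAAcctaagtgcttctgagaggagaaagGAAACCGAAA

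**Figure D3:**
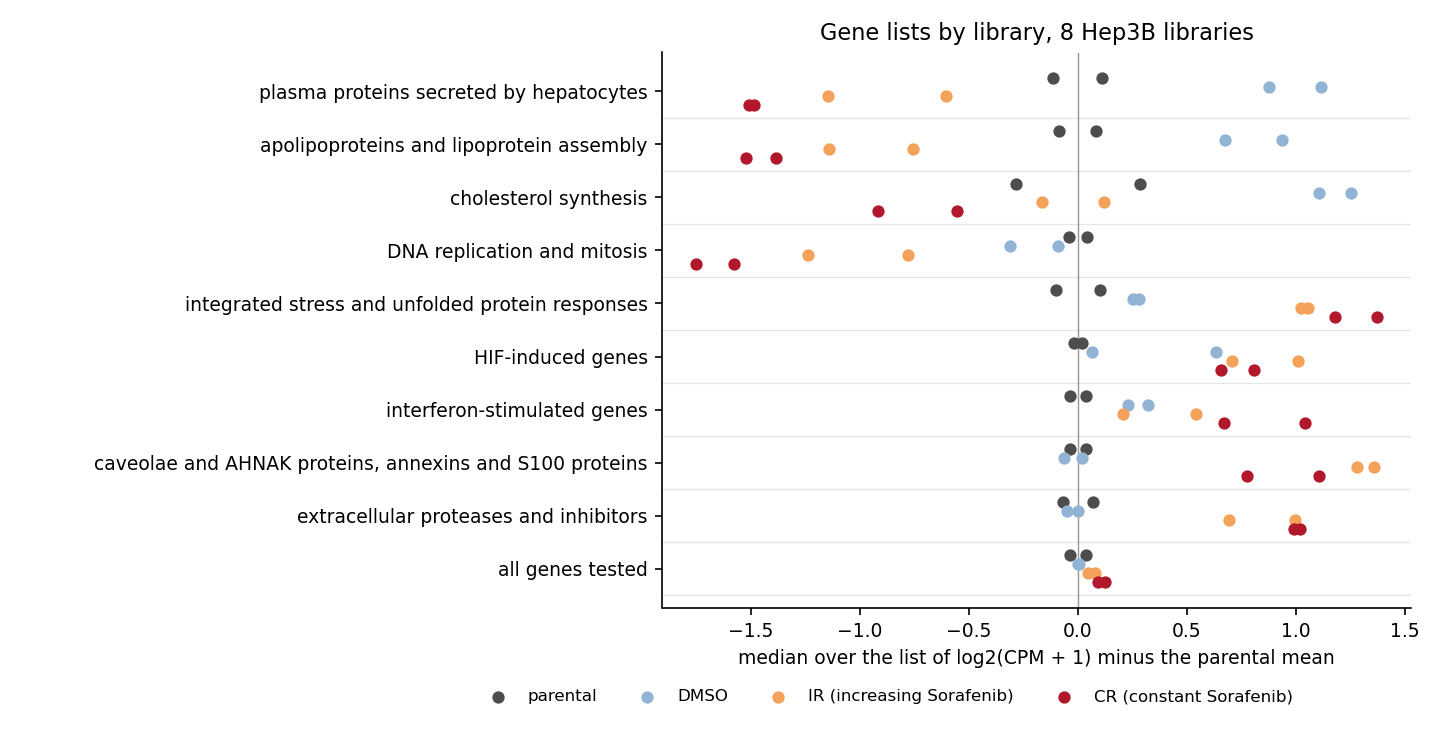
Median over each list of log2(CPM + 1) minus the parental mean, 1 point for each of the 8 Hep3B libraries, for 9 gene lists and all genes tested. For DNA replication and mitosis the CR libraries lie at -1.58 and -1.75, below both IR libraries at -0.78 and -1.24, while for HIF-induced genes the CR libraries, at 0.66 and 0.81, overlap the IR libraries, at 0.71 and 1.01.

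HIF-1 signaling was the pathway of interest of the study. HIF-1 is a dimer of HIF1A, which is degraded in the presence of oxygen, and ARNT, and it is known to induce glucose transport, glycolysis and angiogenic factors. HIF1A had 308 and 339 CPM in parental and 506 and 407 CPM in CR cells, a change of 0.49 ± 0.22 (adjusted p = 0.0981) that did not pass the test, and IR cells had 650.4 and 538 CPM. EPAS1, for HIF-2 alpha, had 132 and 196 CPM in parental and 278 and 231 CPM in CR cells (0.65 ± 0.22, adjusted p = 0.0353), and its call was lost with TMM factors, edgeR and DESeq2 among others. ARNT had 102 and 97.96 CPM in parental and 86.8 and 81.97 CPM in CR cells, and VHL, the ubiquitin ligase subunit that targets HIF1A, had 171 and 174 CPM in parental and 138 and 128 CPM in CR cells, a change of -0.37 ± 0.11 (adjusted p = 0.0219) that was under 0.58 in size. EGLN1, the prolyl hydroxylase that marks HIF1A for VHL and is itself a HIF target, fell from 325 and 276 to 79.6 and 79.4 CPM (-1.90 ± 0.17, adjusted p = 1.03e-05). EGLN1 was counted with the HIF-induced genes. Of 14 listed HIF regulators and deubiquitinases, which did not include EGLN1, 3 were higher (UCHL1, EPAS1 and USP36) and 0 lower. Among all genes 20.0% were higher and 12.3% lower. UCHL1 had 176 and 195 CPM in parental and 753 and 686 CPM in CR cells. The deubiquitinase USP29 had 0 reads in both parental libraries and 0.0265 and 0.0190 CPM in CR cells, too few to be tested.

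Of 30 HIF-induced genes 10 were higher and 2 lower, against 20.0% and 12.3% of all genes (median 0.73), with no test of the list. One DMSO library also lay high for this list, as the medians relative to parental cells were 0.06 and 0.63 in DMSO and 0.66 and 0.81 in CR libraries. LOXL2, a collagen crosslinking enzyme, rose from 2.36 and 1.28 to 77.03 and 80.03 CPM (4.85 ± 0.58), and STC2, a secreted glycoprotein, from 30.7 and 38.4 to 196 and 231 CPM (2.60 ± 0.56). The core motif ACGTG of a hypoxia response element stood in 15 of 25 promoters of the list (60.0%) and in 22.9% of all. It was in 2 of the 6 called higher, 1 of the 2 called lower and 12 of the 17 not called. The sterol regulatory element motif TCACNCCAC was searched likewise for the cholesterol synthesis genes. It stood in 1 of their 18 promoters (5.6%), in 0.9% of all and in 0 of the 4 called lower. Of 27 glycolysis and lactate export genes 5 were higher and 2 lower, shares close to or below the 20.0% and 12.3% of all genes. The members called higher numbered 3 without CR replicate 2 or parental replicate 1, and 8 with DESeq2. SLC2A1, the glucose transporter GLUT1, went from 14.03 and 19.3 to 162 and 161 CPM (3.22 ± 0.31, adjusted p = 1.44e-05), and PFKP, the platelet form of phosphofructokinase, from 0.673 and 0.408 to 49.00 and 45.7 CPM (4.98 ± 0.25). HK2, a hexokinase, had 217 and 321 CPM in parental and 168 and 258 CPM in CR cells (-0.34 ± 0.22, adjusted p = 0.242). SLC2A2, the glucose transporter of hepatocytes, fell from 1.25 and 1.98 to 0.132 and 0.0952 CPM.

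Integrin, protease and membrane protein lists held many higher genes. Of 21 integrin subunits 12 were higher and 2 lower, of 21 extracellular proteases and their inhibitors 11 higher and 1 lower, and of 27 caveolae, AHNAK, annexin and S100 genes 16 higher and 1 lower, with medians of 0.66, 0.99 and 1.01. Among all genes 20.0% were higher and 12.3% lower. ITGB4, the partner of the hemidesmosomal alpha-6 integrin, had 19.3 and 10.3 CPM in parental and 109 and 101 CPM in CR cells (2.81 ± 0.39). PLAU, the urokinase plasminogen activator, went from 0.458 and 0.619 to 42.8 and 66.2 CPM (5.14 ± 0.37, adjusted p = 1.69e-06), and S100A11, a calcium-binding protein, from 7.51 and 7.23 to 264 and 186 CPM (4.73 ± 0.31). Collagens and laminins moved both ways, with 10 of 27 higher and 4 lower. COL4A4, of basement membranes, rose from 0.242 and 0.0563 to 29.8 and 20.1 CPM, and COL5A2, of fibrils, fell from 371 and 424 to 33.9 and 31.2 CPM (-3.57 ± 0.25).

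Genes of mesenchymal transition had 10 of 23 higher and 1 lower, and the count of members called higher was 6 without CR replicate 1 and 4 without parental replicate 2. Over all genes tested, 20.0% were higher and 12.3% lower. SPARC, a matricellular protein, went from 0.121 and 0.169 to 38.1 and 39.3 CPM (5.11 ± 0.30). SNAI2, the repressor also called Slug, had 0.552 and 0.746 CPM in parental, 25.9 and 10.4 CPM in CR and 0.294 and 0.0569 CPM in IR cells, so it was high in the constant regimen and not in the increasing one. Of 28 epithelial junction and polarity genes 3 were higher and 1 lower, against 20.0% and 12.3% of all genes. CDH1, for E-cadherin, had 84.1 and 80.2 CPM in parental and 226 and 291 CPM in CR cells (1.63 ± 0.49, adjusted p = 0.0202), a call lost without any 1 of the 4 libraries. Of 28 YAP and TEAD factors and targets 10 were higher and 0 lower, a count that was 5 without CR replicate 1 and 6 without either parental library. Here too the shares of all genes were 20.0% higher and 12.3% lower. MYOF, a membrane repair protein, rose by 3.42, and WWTR1, the coactivator TAZ, by 1.30.

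Among the direct targets of Sorafenib, BRAF had 19.2 and 16.1 CPM in parental and 14.5 and 16.8 CPM in CR cells (-0.16 ± 0.18, adjusted p = 0.528), and KDR, the main VEGF receptor, had 0 reads in all 8 Hep3B libraries, which allows up to 3 reads in each by counting error alone. Genes of ERK feedback and output lie downstream of RAF. Of 21 RAF kinases and such genes 9 were higher and 2 lower in CR cells, against 20.0% and 12.3% of all genes. The split was 8 and 7 with DMSO cells as the reference, so the lean towards higher genes depended on the untreated group used. The transcription factor ETV5 went from 13.9 and 19.7 to 118 and 127 CPM (2.81 ± 0.26, adjusted p = 1.08e-05), the ERK phosphatase DUSP5 from 7.69 and 9.85 to 49.4 and 48.7 CPM (2.37 ± 0.32), and FOSL1, a subunit of AP-1, from 1.32 and 1.03 to 6.70 and 7.96 CPM (1.94 ± 0.31).

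Of 25 receptor tyrosine kinases 8 were higher and 3 lower, against 20.0% and 12.3% of all genes. With DMSO cells as the reference or after quantile normalization 6 were lower. Beside AXL, its relative MERTK rose from 6.96 and 5.30 to 37.9 and 45.1 CPM (2.58 ± 0.35), the collagen receptor DDR1 from 34.01 and 20.7 to 141 and 154 CPM (2.43 ± 0.43), and EPHB2 from 0.0269 and 0.0141 to 5.39 and 6.17 CPM (2.73 ± 0.18). PDGFRA, a target of the drug, fell from 26.02 and 42.6 to 6.96 and 4.86 CPM (-2.33 ± 0.38). Of 35 growth factor ligands 12 were higher and 6 lower, against 20.0% and 12.3% of all genes. FGF2 rose from 8.98 and 5.56 to 69.2 and 69.99 CPM (3.13 ± 0.20, adjusted p = 7.72e-07) and INHBA, a subunit of activin, from 0.471 and 1.07 to 16.97 and 11.5 CPM (3.10 ± 0.29). IGF2, a fetal growth factor common in HCC, fell from 1333 and 1777 to 108 and 85.3 CPM (-3.99 ± 0.47, adjusted p = 5.80e-05), below both DMSO libraries at 3689 and 4450.3 CPM as well.

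Targets of NRF2, the factor of the oxidative stress response, had 11 of 25 higher and 2 lower, a count of members called higher that was 7 without parental replicate 1, 6 without parental replicate 2 and 4 without CR replicate 2. These counts and those of the lists that follow stand against 20.0% higher and 12.3% lower among all genes. The steroid-metabolizing reductase gene AKR1C1 had 1.25 and 1.20 CPM in parental and 10.9 and 26.4 CPM in CR cells. AKR1C2 had 0.902 and 1.13 CPM in parental and 7.11 and 19.4 CPM in CR cells. Both are near-identical paralogs, and only unique hits were counted, so the split of reads between them is uncertain. IR cells had far more, 135 and 164 CPM of AKR1C1, a difference of -3.05 on the log2 scale for CR minus IR cells. Ferroptosis and iron genes were even, with 5 of 20 higher and 5 lower, of which 3 were lower without CR replicate 1 or parental replicate 2. ACSL4, which loads membranes with oxidizable lipids, fell from 485 and 868 to 97.04 and 98.2 CPM (-2.72 ± 0.31, adjusted p = 4.20e-05), and SAT1, of polyamine catabolism, rose from 45.5 and 45.6 to 294 and 304 CPM (2.69 ± 0.37). Of 16 BCL2 family genes 5 were higher and 0 lower, a count that fell to 0 without parental replicate 2, 1 without CR replicate 2 and 2 without either of the other libraries.

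Wnt targets and liver progenitor markers leaned down, with 11 of 27 lower and 2 higher, although 7 were lower without parental replicate 2. Over all genes tested, 12.3% were lower and 20.0% higher. GPC3, a cell surface proteoglycan of fetal liver and HCC, fell from 389.8 and 544 to 22.5 and 45.2 CPM (-3.81 ± 0.49, adjusted p = 0.000105). The Wnt antagonist DKK1 fell from 1102 and 964 to 215 and 164 CPM (-2.45 ± 0.20). Chemokines and cytokines were divided, 6 of 22 higher and 7 lower, against 20.0% and 12.3% of all genes. IL11 rose from 0.458 and 0.703 to 22.7 and 15.7 CPM and IL18 from 8.44 and 6.81 to 102 and 52.3 CPM, while the neutrophil attractant CXCL1 fell from 38.1 and 44.9 to 5.23 and 3.20 CPM. TGF-beta and BMP genes had 5 of 24 higher and 6 lower, axon guidance genes 12 of 40 and 9, drug transporters 3 of 16 and 4, cytochrome P450 and conjugating enzymes 2 of 27 and 5, and HOX genes 2 of 16 and 5. Of these counts, the lower axon guidance genes numbered 4 without CR replicate 1 or parental replicate 2 and 5 without either of the others, and the lower P450 and conjugating enzymes numbered 2 without CR replicate 1 or parental replicate 1. With DMSO cells as the reference the latter list had 5 higher and 2 lower. The shares of higher members among TGF-beta and BMP genes and among drug transporters were close to the 20.0% of all genes. Drug transporters had library medians of -0.50 and 0.51 in CR cells relative to parental cells, on opposite sides. The higher TGF-beta and BMP genes numbered 3 without CR replicate 1 or parental replicate 2, and the lower HOX genes 3 without CR replicate 1. SULT1E1, the estrogen sulfotransferase, rose from 2.11 and 2.50 to 68.3 and 32.4 CPM, the export pump gene ABCC3 from 40.5 and 27.2 to 131 and 152 CPM, and the uptake carrier SLC22A9 fell from 33.9 and 35.04 to 0.702 and 4.25 CPM.

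Housekeeping lists moved little in size. Of 73 cytosolic ribosomal protein genes 15 were higher and 3 lower (median 0.28), against 20.0% and 12.3% of all genes, a split that became 10 and 4 with TMM factors, 5 and 6 with DMSO cells as the reference, and 7 higher without CR replicate 2 or parental replicate 1. Of 51 nuclear-encoded respiratory chain subunits 7 were lower, a share near the 12.3% of all genes, and 0 higher, and 14 were lower with TMM factors or edgeR and 15 with DESeq2. Lysosome genes had 7 of 33 higher, a share near the 20.0% of all genes, and 2 lower. Among them ATP6V0D2, a proton pump subunit, went from 0.0269 and 0.0141 to 6.37 and 15.8 CPM. In the metallothionein list 2 of 11 were higher, the zinc carrier SLC39A14 and MT2A, also a share near the 20.0% of all genes. MT2A had 0.835 and 0.900 CPM in parental, 28.4 and 20.5 CPM in CR and 0.508 and 0.355 CPM in IR cells.

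Lists of markers of other cell types held few tested genes, so their shares of called members are coarse. For endothelial and for fibroblast and stellate cell markers the called share was above the 32.2% of all genes. For leukocyte and cholangiocyte markers it was below. Of 2 endothelial markers tested 1 was higher (ESAM), with a summed level of 1.60 and 1.90 CPM in parental and 7.47 and 4.25 CPM in CR cells. Of 6 leukocyte markers 1 was higher (CD68), with sums of 11.6 and 22.4 CPM in parental and 42.2 and 32.8 CPM in CR cells. Of 8 fibroblast and stellate cell markers 2 were higher (COL1A1 and RGS5) and 1 lower (PDGFRA), with sums of 69.7 and 75.2 CPM in parental and 105 and 83.6 CPM in CR cells. Defining markers such as CDH5 and VWF of endothelium, CD3E of lymphocytes and DCN and THY1 of fibroblasts did not pass the filter of 1 CPM. Of 10 cholangiocyte markers 1 was higher (KRT7), with sums of 1147 and 1108 CPM in parental and 1177 and 1061 CPM in CR cells. The calls of CD68, RGS5 and KRT7 were each lost without CR replicate 1. The part of such cells in the results above was not tested.

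Many of the lower genes lay next to each other on chromosome 3. When the tested genes were taken in order along each chromosome in 278 windows of 50 genes, the 4 windows with the lowest median change all lay there. Together with the window among them they formed a run of 250 genes from 38180043 to 88199035 in GRCh37, on the short arm, and 128 of these genes (51.2%) were lower and 4 higher, against 12.3% and 20.0% of all genes. The median change over the run was -0.63. The run was picked for low medians in these same values, so its shares and its median are a description only. By library, the run stood at -0.62 and -0.67 in CR cells relative to the parental mean, at -0.66 and -0.65 in IR cells and at 0.03 and 0.04 in DMSO cells. All 4 resistant libraries were thus low to a similar extent and the untreated ones were not. In the 150 genes before the run the median was -0.04, with 32 lower, and in the 431 genes after it -0.30, with 118 lower.

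Over the whole chromosome 278 of 831 genes (33.5%) were lower, compared with 11.1% of the genes elsewhere, and 15 of its 16 windows had a median below 0, as did 50 of the 262 windows on other chromosomes. Of the 15 largest falls 5 are genes of chromosome 3 (LSAMP, TF, TM4SF4, ZPLD1 and ATP2B2), and so are VHL and CDC25A. Within the lowest window ROBO1, a receptor of axon guidance, went from 569 and 409 to 79.5 and 103 CPM (-2.40 ± 0.25, adjusted p = 2.18e-05), and PRICKLE2, of planar cell polarity, from 23.8 and 16.3 to 3.02 and 3.41 CPM (-2.30 ± 0.20). The change rose with GC content across 14597 genes, with a Spearman correlation of 0.19, described over genes of the same libraries. For replicate 2 minus 1 the correlation was 0.13 in CR and 0.01 in parental cells. It had the opposite sign, -0.22, for Hep3B-IR minus DMSO. After the trend on GC content was removed the run stood at -0.78.

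On chromosome 1 the 603 genes from 146714304 to the end had a median of -0.23, with 28.2% lower, and the 849 genes before them 0.15, with 10.5% lower. EGLN1 lies in the part from 146714304 on. The lower part was deeper in IR cells, at -0.62 and -0.63 by library, than in CR cells, at -0.17 and -0.31. The highest window of all lay on the short arm of chromosome 1, from 16450832 to 23247993, with 23 of 50 genes higher and a median of 0.56, which was 0.25 once the GC trend was removed. It holds EPHB2 and ECE1, the endothelin-converting enzyme, which rose from 44.5 and 46.6 to 399 and 310.3 CPM (2.92 ± 0.49). The cause of these runs was not tested.

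**Figure D4:**
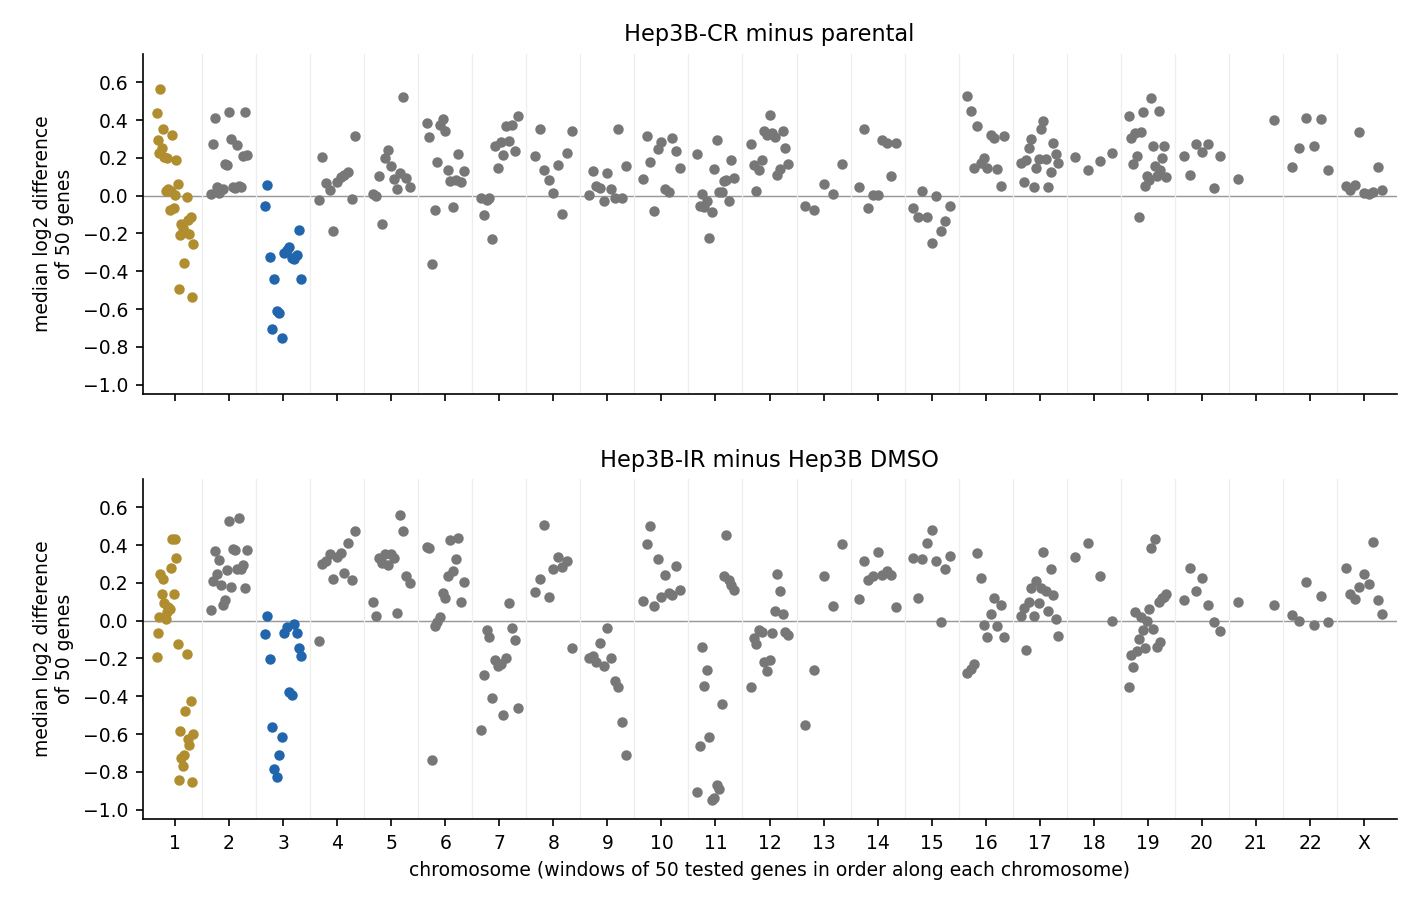
Median log2 difference of each window of 50 neighboring tested genes, in order along each chromosome, for Hep3B-CR minus parental (top) and Hep3B-IR minus DMSO (bottom), with chromosome 3 in blue and chromosome 1 in yellow. In both panels, which share no library, windows on the short arm of chromosome 3 go below -0.5, on chromosome 1 the windows of the long arm are lower in IR than in CR cells, and the lowest windows of IR cells lie on chromosome 11, where CR cells show no such drop.

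The direct comparison with Hep3B-IR asks how the constant regimen differed from the increasing one. In it 1764 genes (11.7%) were called, 963 higher and 801 lower in CR cells, although the count was between 665 and 1151 when any 1 of the 4 libraries was left out, lowest without IR replicate 2. The largest difference was in PEG10, an imprinted gene derived from a retrotransposon, with 189 and 236 CPM in CR and 1.97 and 2.43 CPM in IR cells (6.06 ± 0.35, adjusted p = 8.80e-07). Parental cells had 241 and 471 CPM and DMSO cells 2017 and 1872 CPM, so IR cells lay far below every other Hep3B group. TXNIP, which restrains glucose uptake, was also low in IR cells, with 26.5 and 43.1 CPM in CR, 0.990 and 0.711 CPM in IR and 41.99 and 48.7 CPM in parental cells (4.24 ± 0.40 against IR). SPART, with 33.3 and 27.04 CPM in CR and 2.31 and 1.18 CPM in IR cells, had a level in parental cells of 38.4 and 60.1 CPM. ST3GAL1, a sialyltransferase, was instead raised in CR cells alone, with 44.8 and 47.4 CPM against 1.66 and 1.02 CPM in IR and 0.458 and 0.380 CPM in parental cells (4.34 ± 0.39, adjusted p = 2.98e-05).

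In the other direction CYP2B6, a drug-metabolizing cytochrome, had 3.56 and 1.83 CPM in CR and 271 and 407 CPM in IR cells (-6.53 ± 0.39, adjusted p = 1.31e-06), with 0.700 and 1.51 CPM in parental cells. The glucuronosyltransferase UGT2B15, with 2.14 and 3.07 CPM in CR and 55.8 and 71.9 CPM in IR cells, and ANXA13, with 1.84 and 2.42 CPM in CR and 47.9 and 87.4 CPM in IR cells, also were high in IR cells only among the resistant groups. UGT2B15 has close paralogs, so with unique hits its reads may be undercounted. Of 27 cytochrome P450 and conjugating enzymes 12 were lower in CR than in IR cells and 0 higher, against 5.33% and 6.41% of all genes. SCARA3, a scavenger receptor, had 0.252 and 0.781 CPM in CR cells against 28.8 and 36.1 CPM in IR and 15.8 and 18.02 CPM in parental cells (-4.48 ± 0.25 against IR). COL4A5 (-4.94) and the complement gene C6 (-4.74) were lower too.

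Hep3B-IR against DMSO cells, which shares no library with CR against parental, gave 4819 called genes (32.1%). Of them 2507 were also called in the same direction in CR cells, 1494 higher and 1013 lower, which is 51.8% of the CR calls and 52.0% of the IR calls, and 107 were called in opposite directions. DMSO against parental cells gave 237 calls.

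Between lines, the change from parental to CR cells differed for 3292 genes (21.9%), with 1610 more positive in Hep3B and 1682 more positive in Huh7 cells. The count was 2078 without Hep3B-CR replicate 2 and 2145 without Hep3B parental replicate 1. Of the 15 largest rises 14 were also higher in Huh7-CR cells and 0 lower, and of the 15 largest falls 10 were also lower and 0 higher, against 20.9% of all genes higher and 13.6% lower in that comparison. COL14A1, a fibril-associated collagen, changed in opposite directions, from 3.62 and 5.74 to 28.8 and 41.96 CPM in Hep3B and from 2188 and 2398 to 17.6 and 43.6 CPM in Huh7 cells (8.99 ± 0.53, adjusted p = 7.41e-07). MYO1D, an unconventional myosin, did likewise, from 66.9 and 53.2 to 151 and 201 CPM in Hep3B and from 47.4 and 42.5 to 0.850 and 0.707 CPM in Huh7 cells. GOLM1, a Golgi protein, rose in Hep3B cells from 0.713 and 0.774 to 51.2 and 59.5 CPM and had 280.1 and 281 CPM in parental and 247 and 275 CPM in CR libraries of Huh7. UNC13D, of granule secretion, fell in Hep3B cells from 29.7 and 17.3 to 7.56 and 3.54 CPM, a call lost without any 1 of the libraries other than CR replicate 1, and rose in Huh7 cells from 2.72 and 2.34 to 119 and 156 CPM. The basement membrane genes COL4A1 and LAMA3 rose in Huh7-CR cells from 4.12 and 3.40 to 190.0 and 181 CPM and from 1.09 and 0.763 to 82.8 and 117 CPM, each in turn. In Hep3B cells COL4A1 had 1.43 and 2.95 CPM in parental and 0.146 and 0.286 CPM in CR libraries, and LAMA3 had 77.1 and 42.5 CPM in parental and 23.95 and 42.1 CPM in CR libraries.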

How the data were processed

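Poly(A) RNA of 16 libraries of Huh7 and Hep3B cells was sequenced, 2 per group. The methods state biological triplicates, while the labels give 2 replicates, and the 2 sources also name different kits and sequencers. Per the methods, reads were mapped to hg19 with STAR, unique hits were counted over RefSeq exons with qCount, and edgeR was used for testing. The deposited values are CPM, counts divided by the library total by the authors, for 26258 genes, of which 26111 matched a symbol, and 0 columns were left unused. All values were whole reads within 0.05 reads.

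Genes under 1 CPM in all but 1 library were dropped, and log2(CPM + 1) of the other 15019 was fitted with limma 3.58.1 (trend) in R 4.3.3, in 1 model of 8 groups with 8 residual degrees of freedom. Calls needed an adjusted p under 0.05 and a log2 change of at least 0.58. A pseudocount of 1 understates changes of low genes. Alternatives were edgeR 4.0.16 and DESeq2 1.42.0 on the recovered reads, TMM and quantile scaling, pseudocounts of 0.25 and 4, other filters, samples and thresholds, and each library left out.

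Named genes were the 15 largest rises and falls, up to 4 called members of each of 41 lists and of the outermost windows, 6 in each direction for the comparisons with IR and with Huh7, and 12 fixed genes. SERPINA1, TTR and HNF4A, as liver markers, and the genes shown or listed for a promoter match were named after their values were seen. Some genes are not reported here. Members and lists were chosen with earlier results of these data known. Windows hold 50 tested genes in order of GRCh37 positions (GENCODE). Promoters are RefSeq's, on GRCh38.p14.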

Additional observations from a re-analysis of the deposited data

Results flagged for a closer look

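For the genes named as the largest rises and falls in Hep3B-CR cells, for the genes chosen for the comparison between lines and for the 12 fixed genes, the difference between the change in Hep3B-CR and the change in Huh7-CR cells, each against its parental cells, was tested as an interaction in limma. The 28 genes reported here as past the threshold are given here as log2 differences, Hep3B minus Huh7, with the change in each line where it helps to read them. The genes were chosen for large changes in Hep3B-CR cells or for a large difference between the lines, apart from the fixed genes, so the choice itself favors a difference in that direction, and the values are a description.

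Among the largest rises, the difference was 5.398 for MAP1B, 4.61 for LONRF2, 4.48 for LAMP3 and 3.96 for COL12A1. It was 3.23 for ETS1, 3.22 for BMP6, 2.36 for ITGA3, which rose by 7.97 in Hep3B and by 5.61 in Huh7 cells, and 1.66 for ANXA1.

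Among the largest falls, the loss was deeper in Hep3B cells for CHODL (-5.82), IGDCC3 (-4.50), TM4SF4 (-4.36), CDH12 (-4.16), LSAMP (-3.40) and ALB (-3.00). For CHODL, IGDCC3, TM4SF4 and CDH12 the change in Huh7-CR cells lay between -0.23 and 0.11. The loss was deeper in Huh7 cells for AFP (3.17) and NTS (2.28).

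The genes chosen for the line comparison differed by 8.99 for COL14A1, 6.22 for MYO1D, 5.92 for XAGE2, 5.47 for MTTP and 5.12 for GOLM1 in one direction. In the other they differed by -7.21 for UNC13D, -6.65 for COL4A1, -6.52 for LAMA3, -6.30 for GRIK2, -6.17 for DUOX2 and -6.16 for COL4A2. XAGE2 and DUOX2 were at or near 0 CPM in all Hep3B libraries, so these 2 differences come from Huh7 cells.

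HIF1A differed by 0.99 between the lines (adjusted p = 0.0394, limma), with a change of 0.49 in Hep3B-CR and of -0.50 in Huh7-CR cells, and neither change passed the test alone.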

How the results depend on the processing

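Of 3575 values recomputed for 199 named genes, 3402 kept direction and side of the threshold, 158 lost the threshold, 15 gained it and 0 reversed, and 140 genes held under all alternatives run. The count of 4840 calls lay between 3852 and 5348 under other scalings, tests, pseudocounts, filters, references and samples. At a log2 change of at least 1 it was 2520, with 1563 higher and 957 lower, by construction. Leaving out 1 of the 4 libraries gave 3351 to 4065 calls, 1883 to 2611 higher and 1438 to 1521 lower. Each of these fits had 1 library fewer, and the smallest and the largest total both came from leaving out a parental library. The cause of the drop in calls was not tested. The comparison with Hep3B-IR gave 665 to 1151 calls when 1 library was left out, and the line comparison 2078 to 2555. A fit with the replicate number as a block gave 4862 calls (2999 higher and 1863 lower), 1827 against Hep3B-IR, 3391 between lines and 2531 shared calls. Deviations of same-numbered libraries correlated at -0.22 to 0.44 between groups and at 0.26 between CR and parental cells. These values do not settle whether replicate numbers pair the samples. The trend on GC content, an alternative chosen after seeing the data, moved the chromosome 3 run from -0.63 to -0.78. With 2 libraries a group, small changes of variable genes cannot be resolved.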
